A study of Homo sapiens with 6 samples.

Results

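The genes described here are 32 genes of sterol and fatty acid synthesis, taken by name from a fixed list of enzymes, regulators and 1 sterol carrier, among the 20476 genes of the count table. They divide into 8 genes of the mevalonate steps, 11 genes from squalene to cholesterol, 5 regulators of the sterol regulatory element binding proteins (SREBPs), the sterol carrier gene STARD4 and 7 genes of fatty acid synthesis. The sterol arm below means the 19 enzymes of the mevalonate and squalene steps, and the fatty acid arm the 7 genes of fatty acid synthesis. Their levels were compared in SW620, a human colorectal carcinoma line that grew from a nodal metastasis. One group of 3 libraries came from cells with a stable hairpin (shECM1) that targets ECM1, a secreted matrix protein gene, and the other group of 3 from cells with a control hairpin (shNC), so both groups hold a hairpin. Whether each line was 1 clone or a pool is not given in the sources used here. The table names its columns only by a letter and a number, and reading C as control and S as the ECM1 hairpin is an inference; under the opposite reading every direction below would be reversed.

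Cells make cholesterol from acetyl-CoA through mevalonate and squalene, and fatty acids from the same acetyl-CoA through malonyl-CoA. The SREBPs are transcription factors held in the membrane of the endoplasmic reticulum. The carrier protein SCAP takes them to the Golgi, where proteases free the active part, and INSIG proteins hold SCAP back when sterols are plentiful. SREBP-2, from SREBF2, acts mainly on sterol genes, and SREBP-1, from SREBF1, mainly on fatty acid genes. INSIG1 is itself a target of the SREBPs, so its transcript is a common readout of their activity. Carcinoma cells, colorectal ones among them, often make much of their fatty acid through FASN.

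Levels are given as CPM (counts-per-million of the library total, scaled with trimmed mean of M values factors). Library totals ran from 9881720 to 16813951 counts, and the 32 genes together held 0.172% to 0.227% of each library. Single genes of the list rested on 43 to 4015 counts per library. All 32 passed the low-count filter, which kept 12576 genes. In the knockdown check, ECM1 was at 38.8, 19.0 and 52.3 CPM in shNC replicates 1, 2 and 3 and at 14.8, 13.6 and 8.41 CPM in the shECM1 replicates. The groups did not overlap, with a log2 fold change of -1.58 ± 0.32 (SE, n = 3 each). The adjusted p was 0.0973 in edgeR's quasi-likelihood test and 0.0256 in DESeq2. Of 10 colorectal epithelial markers 9 passed the count filter, and CDX1 had 1 count in control replicate 3 and 0 in the other libraries. Their summed level, mostly KRT8 and KRT18, was 10662 to 15342 CPM in shNC and 10331 to 11687 CPM in shECM1. In such libraries, if they are bulk ones, fewer cells of a type and less RNA per cell cannot be told apart. Control replicate 2 stood apart from the other controls. On the first principal component, which held 58.1% of the variance, it lay at 8.64, against -25.2 and -41.3 for control replicates 1 and 3 and 16.6 to 23.3 for shECM1. By chi-square per gene between pairs of libraries, it was nearer to shECM1 replicates 1, 2 and 3 (5.15, 8.28 and 10.4) than to control replicates 1 and 3 (15.6 and 32.5). Results are also given without it where that changed a call. Leaving out the control nearest to shECM1 tends to widen the differences, so calls made only without it are not separate evidence. This holds for every such value below.

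The proximal promoters of the gene with the most negative difference in each of the 5 groups are printed here. Their shared direction follows from that choice. SREBPs can act on such promoters beside the factor NF-Y, but a part of either in these differences was not tested. SREBF2 was added after the search, as the only gene of the list whose window held the sterol element letters searched. Each window runs 5′ to 3′ from 250 bases before to 50 bases after the transcript start, from RefSeq on GRCh38.p14. Capitals mark TCACNCCAC, a sterol regulatory element core, and CCAAT, the NF-Y box, on either strand. The windows are chr7:155297628-155297927, plus strand (INSIG1), chr22:41832855-41833154, plus strand (SREBF2), chr5:111512486-111512785, minus strand (STARD4), chr16:88663042-88663341, minus strand (MVD), chr4:165327419-165327718, plus strand (MSMO1) and chr10:100346983-100347282, plus strand (SCD).
INSIG1: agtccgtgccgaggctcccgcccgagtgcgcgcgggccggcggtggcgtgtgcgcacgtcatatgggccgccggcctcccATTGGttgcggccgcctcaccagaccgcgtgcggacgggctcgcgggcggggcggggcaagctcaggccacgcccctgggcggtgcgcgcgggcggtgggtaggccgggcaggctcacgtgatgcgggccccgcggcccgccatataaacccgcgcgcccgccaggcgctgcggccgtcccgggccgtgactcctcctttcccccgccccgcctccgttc
SREBF2: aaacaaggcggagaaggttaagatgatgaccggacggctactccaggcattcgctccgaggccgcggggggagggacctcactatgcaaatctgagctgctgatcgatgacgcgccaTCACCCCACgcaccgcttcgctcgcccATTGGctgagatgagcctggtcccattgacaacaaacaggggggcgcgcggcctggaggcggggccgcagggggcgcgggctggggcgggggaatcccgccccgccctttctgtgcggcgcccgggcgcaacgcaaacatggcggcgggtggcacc
STARD4: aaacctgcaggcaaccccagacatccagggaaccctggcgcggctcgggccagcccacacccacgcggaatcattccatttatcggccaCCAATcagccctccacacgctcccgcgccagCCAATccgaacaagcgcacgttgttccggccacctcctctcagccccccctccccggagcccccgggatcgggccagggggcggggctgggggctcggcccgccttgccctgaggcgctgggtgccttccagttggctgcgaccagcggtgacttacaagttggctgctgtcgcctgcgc
MVD: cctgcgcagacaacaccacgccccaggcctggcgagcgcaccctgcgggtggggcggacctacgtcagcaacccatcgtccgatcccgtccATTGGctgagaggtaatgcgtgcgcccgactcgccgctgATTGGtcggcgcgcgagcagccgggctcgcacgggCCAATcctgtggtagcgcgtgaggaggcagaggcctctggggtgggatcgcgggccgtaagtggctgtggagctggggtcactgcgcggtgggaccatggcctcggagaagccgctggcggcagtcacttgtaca
MSMO1: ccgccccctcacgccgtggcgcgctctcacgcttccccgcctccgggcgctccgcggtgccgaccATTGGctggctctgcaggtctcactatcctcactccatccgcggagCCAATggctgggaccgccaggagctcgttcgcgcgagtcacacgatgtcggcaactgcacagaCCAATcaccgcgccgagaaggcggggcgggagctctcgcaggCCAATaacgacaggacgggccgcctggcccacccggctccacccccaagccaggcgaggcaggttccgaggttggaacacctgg
SCD: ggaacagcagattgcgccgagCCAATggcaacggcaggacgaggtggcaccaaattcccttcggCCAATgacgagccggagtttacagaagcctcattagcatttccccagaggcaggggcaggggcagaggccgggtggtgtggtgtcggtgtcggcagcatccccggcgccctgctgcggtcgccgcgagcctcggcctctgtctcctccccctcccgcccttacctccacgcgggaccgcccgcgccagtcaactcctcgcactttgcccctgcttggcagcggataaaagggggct

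RefSeq windows were found for 28 of the 32 genes, and ACAT2, FASN, FDFT1 and SQLE were not matched. The NF-Y box was in at least 1 window of 21 of the 28, against 42.9% of 10145 tested genes with a window and 34.6% of all 35116 windows. It was in 14 of 16 sterol arm genes and in 4 of 6 fatty acid arm genes. Of the printed windows, that of MSMO1, C4-sterol methyl oxidase, held 4 boxes and that of MVD 3, as the capitals in their sequences show. The windows of MVK and NSDHL, which are not printed, held more matches than that of MSMO1. Their log2 fold changes were -0.23 for MVK and 0.19 for NSDHL. A relation between the number of boxes and the difference was not tested. The sterol element letters were in 1 of the 28, SREBF2, against 1.49% of tested genes with a window and 1.13% of all windows. In SREBF2 they began 133 bases before the transcript start. No other form of the element was searched. The Sp1 box GGGCGG was in 27 of the 28, against 77.2% of tested genes, and the E-box CACGTG was in 4 of the 28, against 12.5%. In NSDHL and IDI1 some boxes on the 2 strands overlapped. Such matches describe letters in these windows and do not show binding.

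Most of the list lay lower in shECM1, and the sterol arm had a lower median than the fatty acid arm. Of the 32 genes, 24 had a negative log2 fold change (shECM1 minus shNC), with a median of -0.28, against 48.6% negative and a median of 0.01 over all genes tested. The sterol arm had 15 of 19 negative and a median of -0.32. All 5 SREBP regulators were negative, with a median of -0.43. The fatty acid arm had 3 of 7 negative and a median of 0.02, so the sterol median was lower by 0.34 on the log2 scale. These are descriptions of genes chosen with earlier results of these data known, and no test was made of the arms. In each library the mean level of the sterol arm minus that of the fatty acid arm was 0.09, -0.17 and 0.40 (log2) in the controls and -0.09, 0.02 and -0.25 in shECM1. The groups overlapped on this measure, and their difference of -0.22 was not larger than the SD between replicates of 0.22. The gap of the medians, too, was as small as -0.12 without shECM1 replicate 1, -0.18 without control replicate 3 and -0.19 after a correction for transcript GC content, and it was -0.50 without control replicate 2. With 1 library left out the fatty acid median itself ran from -0.11 to 0.06, so it has no settled sign.

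By the quasi-likelihood test of edgeR, adjusted by Benjamini-Hochberg over all 12576 genes, 0 of the 32 were called, as were 0 genes overall (0%). At an unadjusted p under 0.05, 11 of the 32 (34.4%) were lower in shECM1 and 0 were higher, where 14.2% of all genes were lower and 8.31% higher. DESeq2 called 8 of the 32 (25%) lower and 0 higher, with 5.08% and 1.03% of the 11683 genes to which it gave an adjusted p called in these directions. The 8 were INSIG1, SREBF1, STARD4, HMGCS1, MVD, FDFT1, HSD17B7 and SCD, so 4 came from the sterol arm and 1 from the fatty acid arm. In 4 of the 32 (12.5%) every shECM1 library lay below every shNC library, and in 0 every one lay above, against 13.2% and 11.2% of all genes. That share is near the background. Without control replicate 2, edgeR called 16 of the 32 (50%) lower and 1 (ACACA) higher, against 14.1% and 9.73% of all genes. With any other single library left out, edgeR called 0 of the 32 and 0 genes overall.

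**Figure D1:**
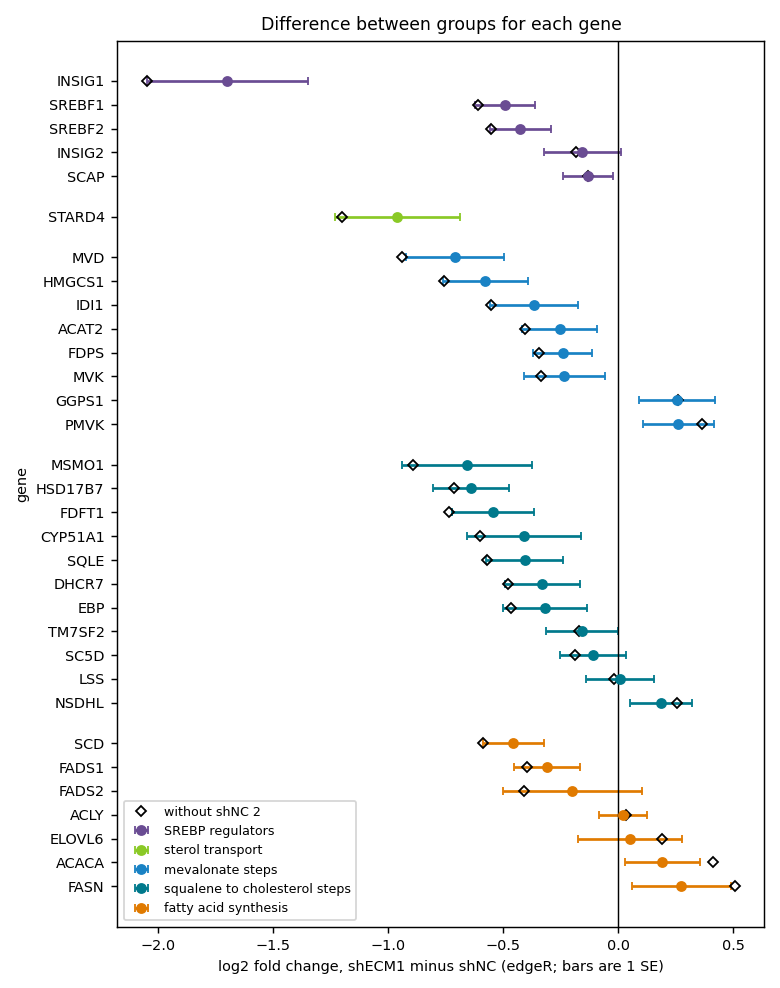
The log2 fold change (shECM1 minus shNC, x axis) of each of the 32 genes, with filled circles for all 6 libraries, bars of 1 SE, colours for the gene groups and open diamonds for the value without control replicate 2. INSIG1 and STARD4 lie farthest to the left at -1.70 and -0.96, while the fatty acid genes run from -0.46 for SCD to 0.28 for FASN.

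INSIG1, which retains the SCAP and SREBP complex in the endoplasmic reticulum, showed the most negative difference of the list (ENSG00000186480, GRCh38 chromosome 7, 155297776 to 155310235, plus strand). It was at 21.3, 8.26 and 27.3 CPM in shNC replicates 1, 2 and 3 and at 6.35, 5.84 and 5.34 CPM in the shECM1 replicates. The shECM1 values were tight and all lay below the controls, but control replicate 2 was close to them. The log2 fold change was -1.70 ± 0.35 (SE, n = 3 each), a 3.25-fold lower fitted level (edgeR adjusted p = 0.0973, DESeq2 adjusted p = 0.000198). Without control replicate 2 it was -2.05 (edgeR adjusted p = 9.72e-05), and without control replicate 3, the highest control, it was -1.33 and not called (adjusted p = 0.245). INSIG2, the second retention protein and one whose transcript is less tied to SREBP activity, was at 36.0, 36.7 and 43.8 CPM in shNC replicates 1, 2 and 3 and at 41.1, 37.5 and 26.3 CPM in the shECM1 replicates. Its groups overlapped, and the difference was -0.15 ± 0.17 (SE, n = 3 each), with the sign turning to 0.02 without shECM1 replicate 3.

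Both SREBP genes had negative differences. SREBF1 (ENSG00000072310, GRCh38 chromosome 17, 17810399 to 17837002, minus strand) was at 165, 121 and 162 CPM in shNC replicates 1, 2 and 3 and at 103, 102 and 113 CPM in the shECM1 replicates. Every shECM1 library lay below every control, with a log2 fold change of -0.49 ± 0.13 (SE, n = 3 each), with edgeR adjusted p = 0.103 and DESeq2 adjusted p = 0.022. It was -0.61 without control replicate 2, where edgeR called it (adjusted p = 0.00145). Without control replicate 3 SREBF1 was at -0.43 and not called (edgeR adjusted p = 0.325). Its exons overlap those of RAI1 on the other strand by 556 bases, and since strand-specific counting is not stated, reads there cannot be assigned. SREBF2 (ENSG00000198911, GRCh38 chromosome 22, 41833079 to 41907308, plus strand) was at 263, 193 and 270.3 CPM in shNC replicates 1, 2 and 3 and at 169.6, 176 and 196 CPM in the shECM1 replicates. Control replicate 2 lay within the range of shECM1, so the groups overlapped, and neither edgeR (log2 fold change -0.43 ± 0.13 (SE, n = 3 each), adjusted p = 0.121) nor DESeq2 (adjusted p = 0.0566) called it. Without that control, edgeR called it at -0.55 (adjusted p = 0.00251). Without control replicate 3 instead, SREBF2 was at -0.34 and not called (edgeR adjusted p = 0.401). SCAP, the escort protein, was at 86.4, 78.6 and 75.3 CPM in shNC replicates 1, 2 and 3 and at 72.8, 67.7 and 78.9 CPM in the shECM1 replicates. These ranges overlapped, the difference was -0.13 ± 0.11 (SE, n = 3 each), and its sign turned to 0.05 after a correction for transcript GC content.

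STARD4, a cytosolic carrier that moves sterol between membranes, had the second most negative difference (ENSG00000164211, GRCh38 chromosome 5, 111496033 to 111512590, minus strand). It was at 27.9, 15.5 and 32.1 CPM in shNC replicates 1, 2 and 3 and at 14.3, 15.7 and 8.78 CPM in the shECM1 replicates. Control replicate 2 lay just below shECM1 replicate 2, and shECM1 replicate 3 was the lowest of all 6. The log2 fold change was -0.96 ± 0.27 (SE, n = 3 each), with edgeR adjusted p = 0.108 and DESeq2 adjusted p = 0.0127. Without control replicate 2 it was -1.20 (edgeR adjusted p = 0.00183), and without control replicate 3 it was -0.74 and not called (edgeR adjusted p = 0.356).

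**Figure D2:**
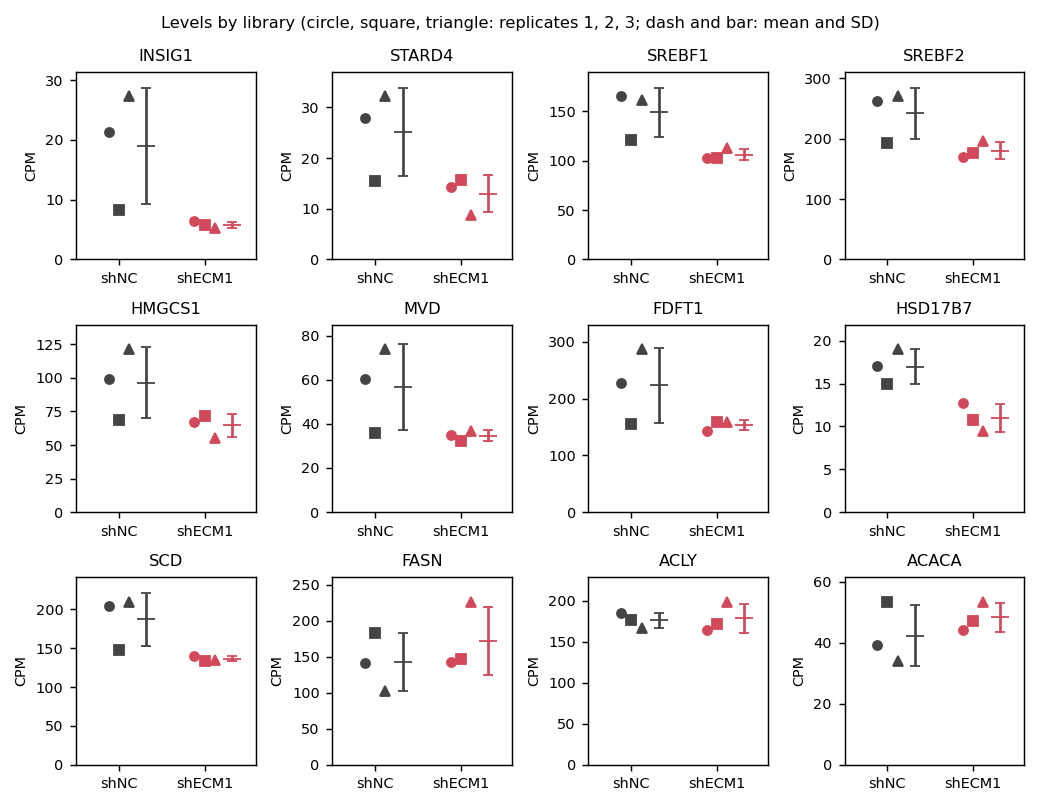
CPM (y axis, from 0) of 12 genes in each library, with control libraries in grey and shECM1 libraries in red, symbols for the replicate number, and a dash with a bar for the mean and SD of each group. For INSIG1, MVD and SCD the shECM1 points cluster tightly while the controls spread, and the control square, replicate 2, sits nearest to shECM1; FASN and ACACA show wide overlap.

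In the mevalonate steps 6 of 8 genes were negative and 2 were positive, with a median of -0.25. HMGCS1, which makes HMG-CoA, was at 99.0, 68.9 and 122 CPM in shNC replicates 1, 2 and 3 and at 67.2, 71.5 and 55.2 CPM in the shECM1 replicates. Controls 1 and 3 were the highest, control 2 was inside the shECM1 range, and the difference was -0.58 ± 0.18 (SE, n = 3 each), with edgeR adjusted p = 0.124 and DESeq2 adjusted p = 0.043. MVD, which makes isopentenyl diphosphate and is shown by library because of its values, had the most negative difference of the sterol arm. It was at 60.3, 35.8 and 73.9 CPM in shNC replicates 1, 2 and 3 and at 35.1, 32.2 and 36.7 CPM in the shECM1 replicates. Control 2 was again inside the shECM1 range, and the log2 fold change was -0.71 ± 0.21 (SE, n = 3 each), with edgeR adjusted p = 0.115 and DESeq2 adjusted p = 0.0254. FDPS, farnesyl diphosphate synthase and the most abundant of these 8 by CPM, was at 150.2, 127 and 178 CPM in shNC replicates 1, 2 and 3 and at 118, 130.1 and 137 CPM in the shECM1 replicates. Its groups overlapped, with a difference of -0.24 ± 0.13 (SE, n = 3 each) that neither edgeR (adjusted p = 0.29) nor DESeq2 (adjusted p = 0.326) called, and processed pseudogenes named for it make its count uncertain.

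Of the others, ACAT2, a thiolase that makes acetoacetyl-CoA, was at 65.7 ± 15.2 CPM over the controls and 55.0 ± 5.55 CPM over the shECM1 libraries (SD, n = 3 each). MVK, mevalonate kinase, was at 15.6 ± 2.30 CPM over the controls and 13.2 ± 2.17 CPM over the shECM1 libraries (SD, n = 3 each). IDI1, the isomerase of isopentenyl diphosphate, was at 22.2 ± 5.67 CPM over the controls and 17.3 ± 1.94 CPM over the shECM1 libraries (SD, n = 3 each). These 3 genes had negative log2 fold changes of -0.25, -0.23 and -0.37, with overlapping groups. The exons of ACAT2 overlap TCP1 by 397 bases and those of MVK overlap MMAB by 306 bases, both on the other strand. The 2 genes that went the other way were PMVK, phosphomevalonate kinase (0.26), and GGPS1, which makes geranylgeranyl diphosphate for protein prenylation (0.26). PMVK was at 15.2 ± 1.99 CPM over the controls and 18.2 ± 1.97 CPM over the shECM1 libraries (SD, n = 3 each), and GGPS1 at 11.7 ± 0.104 CPM over the controls and 14.0 ± 2.33 CPM over the shECM1 libraries (SD, n = 3 each), both with overlap. GGPS1 shares 1422 exonic bases with TBCE on the same strand, so its count is uncertain. None of these 5 was called by edgeR or DESeq2 with all libraries. Without control replicate 2, edgeR called 5 of the 8 lower, against 14.1% of all genes. The 5 called included HMGCS1 at -0.76 (adjusted p = 0.00202) and MVD at -0.94 (adjusted p = 0.000479). The other 3 were ACAT2 (-0.40, adjusted p = 0.0328), IDI1 (-0.55, adjusted p = 0.0186) and FDPS (-0.34, adjusted p = 0.0415). Without control replicate 3, HMGCS1 was at -0.37 (edgeR adjusted p = 0.419) and MVD at -0.47 (edgeR adjusted p = 0.394), and neither was called.

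From squalene to cholesterol 9 of 11 genes were negative, with a median of -0.33. FDFT1, squalene synthase, was at 228, 155 and 287 CPM in shNC replicates 1, 2 and 3 and at 144, 158 and 159 CPM in the shECM1 replicates. The 2 high controls stood well above the rest, control 2 was inside the shECM1 range, and the difference was -0.54 ± 0.18 (SE, n = 3 each), with edgeR adjusted p = 0.13. DESeq2 placed it at the edge of its threshold (adjusted p = 0.0499). Per kilobase of exon FDFT1 had the highest level of the 32 in shNC, at 43.0 CPM per kilobase, ahead of FDPS at 40.8, SCD at 34.9 and ACLY at 33.7. The lowest on this scale was FADS2, at 0.622 CPM per kilobase. HSD17B7, a sterol ketoreductase, was the 1 gene of the sterol arm without overlap. It was at 17.0, 14.9 and 19.0 CPM in shNC replicates 1, 2 and 3 and at 12.7, 10.7 and 9.44 CPM in the shECM1 replicates. Here control 2 stayed with the controls, and the log2 fold change was -0.64 ± 0.17 (SE, n = 3 each), with edgeR adjusted p = 0.102 and DESeq2 adjusted p = 0.0319. The value without control replicate 2 was -0.71 (edgeR adjusted p = 0.0104). A transcribed pseudogene copy, HSD17B7P2, makes its count uncertain.

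DHCR7, which catalyses the last step to cholesterol in one branch, was at 131, 86.6 and 123 CPM in shNC replicates 1, 2 and 3 and at 77.9, 86.6 and 106 CPM in the shECM1 replicates. Control 2 lay at the level of shECM1 replicate 2, and the difference was -0.33 ± 0.16 (SE, n = 3 each), with edgeR adjusted p = 0.256 and DESeq2 adjusted p = 0.243. MSMO1, also shown by library because of its values and whose promoter held the most NF-Y boxes of the 6 printed, was at 32.7, 19.8 and 42.6 CPM in shNC replicates 1, 2 and 3 and at 24.3, 23.4 and 12.7 CPM in the shECM1 replicates. The 2 groups overlapped because control 2 was below shECM1 replicates 1 and 2, and DESeq2 did not call it (log2 fold change in edgeR -0.66 ± 0.28 (SE, n = 3 each), DESeq2 adjusted p = 0.114).

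SQLE, the squalene epoxidase and a rate-limiting enzyme of the sterol branch, was at 29.4 ± 6.63 CPM over the controls and 22.2 ± 0.805 CPM over the shECM1 libraries (SD, n = 3 each), a log2 fold change of -0.41. EBP, the sterol isomerase, was at 31.3 ± 7.00 CPM over the controls and 25.2 ± 4.26 CPM over the shECM1 libraries (SD, n = 3 each), a log2 fold change of -0.32. Neither was called with all libraries, and for both control 2 was the lowest control. CYP51A1, lanosterol demethylase, was at 7.52 ± 2.0 CPM over the controls and 5.6 ± 1.18 CPM over the shECM1 libraries (SD, n = 3 each), a log2 fold change of -0.41. TM7SF2, a sterol reductase, was at 26.5 ± 0.967 CPM over the controls and 23.8 ± 5.09 CPM over the shECM1 libraries (SD, n = 3 each), and SC5D, a sterol desaturase, at 33.2 ± 3.99 CPM over the controls and 30.8 ± 4.05 CPM over the shECM1 libraries (SD, n = 3 each). Their differences were -0.16 ± 0.16 (SE, n = 3 each) and -0.11 ± 0.14 (SE, n = 3 each), and all 5 genes had overlapping groups. CYP51A1 shares 2844 exonic bases with another gene model of the table on the same strand, so its low level is uncertain. LSS, lanosterol synthase, was at 34.3 ± 3.27 CPM over the controls and 34.4 ± 6.51 CPM over the shECM1 libraries (SD, n = 3 each). Its difference of 0.01 changed sign under several settings. NSDHL, a sterol dehydrogenase, was at 19.9 ± 1.37 CPM over the controls and 22.6 ± 2.42 CPM over the shECM1 libraries (SD, n = 3 each) and was the other gene of the group with a positive difference (0.19). Without control replicate 2, edgeR called 6 of these 11 lower and 0 higher, against 14.1% and 9.73% of all genes. The 6 were FDFT1 (-0.73), SQLE (-0.57), MSMO1 (-0.89), HSD17B7, EBP (-0.47) and DHCR7 (-0.48). Without control replicate 3, FDFT1 was at -0.32 (edgeR adjusted p = 0.443) and HSD17B7 at -0.55 (edgeR adjusted p = 0.336), and neither was called.

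**Figure D3:**
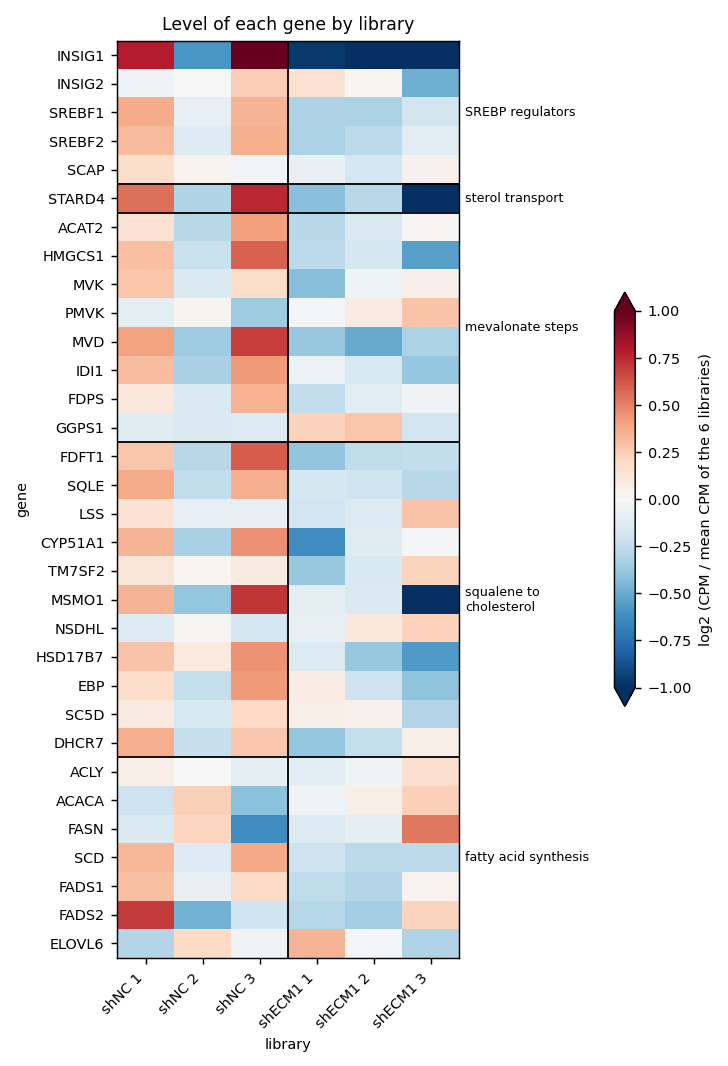
Heat map of the level of each of the 32 genes (rows, by group) in each of the 6 libraries (columns), as log2 of CPM over the mean of the 6; colours saturate at 1 and -1. Control columns 1 and 3 are red for most regulators and sterol genes and control column 2 is pale or blue like the shECM1 columns, while the fatty acid rows show no such pattern apart from SCD and FADS1.

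The genes of the fatty acid arm went in both directions. SCD, the stearoyl-CoA desaturase that makes monounsaturated fatty acids (ENSG00000099194, GRCh38 chromosome 10, 100347124 to 100364834, plus strand), was at 204, 147 and 209.8 CPM in shNC replicates 1, 2 and 3 and at 139.7, 134 and 135 CPM in the shECM1 replicates. Every shECM1 library lay below every control, with a log2 fold change of -0.46 ± 0.13 (SE, n = 3 each), with edgeR adjusted p = 0.112 and DESeq2 adjusted p = 0.0401. A pseudogene named for SCD makes its count uncertain. FASN, fatty acid synthase (ENSG00000169710, GRCh38 chromosome 17, 82078333 to 82098332, minus strand), was at 142, 183 and 102 CPM in shNC replicates 1, 2 and 3 and at 143, 147 and 227 CPM in the shECM1 replicates. Its highest library was shECM1 replicate 3 and its lowest control replicate 3, and the difference of 0.28 ± 0.21 (SE, n = 3 each) was not called (edgeR adjusted p = 0.457, DESeq2 adjusted p = 0.44). ACACA, the acetyl-CoA carboxylase that makes malonyl-CoA for FASN, was at 39.3, 53.4 and 34.1 CPM in shNC replicates 1, 2 and 3 and at 44.3, 47.1 and 53.5 CPM in the shECM1 replicates. Controls 1 and 3 lay below all shECM1 libraries and control 2 just below shECM1 replicate 3, with a difference of 0.19 ± 0.16 (SE, n = 3 each) that was not called (edgeR adjusted p = 0.493, DESeq2 adjusted p = 0.53). The libraries of each group stood in the same order for ACACA as for FASN.

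ACLY, which makes cytosolic acetyl-CoA from citrate and so feeds both arms, was at 185, 177 and 166 CPM in shNC replicates 1, 2 and 3 and at 165, 172 and 199 CPM in the shECM1 replicates. Its ranges overlapped fully, with a difference of 0.02 ± 0.11 (SE, n = 3 each). The front-end desaturase gene FADS1 was at 35.4, 27.2 and 32.8 CPM in shNC replicates 1, 2 and 3 and at 24.1, 23.5 and 29.4 CPM in the shECM1 replicates. The ranges overlapped because control 2 was below shECM1 replicate 3, and the difference was -0.31 ± 0.14 (SE, n = 3 each), uncalled (edgeR adjusted p = 0.232). Its neighbour FADS2 was at 10.4, 4.60 and 5.58 CPM in shNC replicates 1, 2 and 3 and at 5.26, 5.06 and 7.46 CPM in the shECM1 replicates. Control 1 alone was high, and without it the sign turned from -0.20 to 0.23. FADS1 and FADS2 share 490 exonic bases on opposite strands. ELOVL6, which lengthens palmitate, was at 4.99, 7.04 and 5.94 CPM in shNC replicates 1, 2 and 3 and at 7.74, 6.08 and 4.98 CPM in the shECM1 replicates, with overlapping groups and a difference of 0.05. Without control replicate 2, edgeR called SCD lower (-0.59, adjusted p = 0.00143) and ACACA higher (0.41, adjusted p = 0.039), while FASN stood at 0.51 (adjusted p = 0.0739). Without control replicate 3, SCD was at -0.36, ACACA at 0.06 and FASN at 0.09 (edgeR adjusted p = 0.372, 0.905 and 0.882).

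Averaged by library, the sterol groups and the regulators followed the same order among the controls, and the fatty acid arm did not. Relative to the mean of the 6 libraries, the sterol arm was at 0.22, -0.15 and 0.32 (mean log2 CPM) in shNC replicates 1, 2 and 3, and at -0.16, -0.10 and -0.13 in the shECM1 replicates. Control 2 thus lay between shECM1 replicates 1 and 3 and far from the other 2 controls. The regulators were at 0.40, -0.07 and 0.49 in shNC and -0.22, -0.28 and -0.31 in shECM1, so here control 2 remained above shECM1. The fatty acid arm was at 0.13, 0.02 and -0.09 in shNC and -0.07, -0.11 and 0.12 in shECM1, with full overlap. Gene by gene, control 2 was the lowest control for 24 of the 32, against 39.8% of all genes tested. It was nearer to the shECM1 mean than to the mean of the other controls for 27 of the 32 (84.4%), against 67.9% of all genes. For 23 of the 32 the SD was larger in shNC than in shECM1, against 54.6% of all genes.

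**Figure D4:**
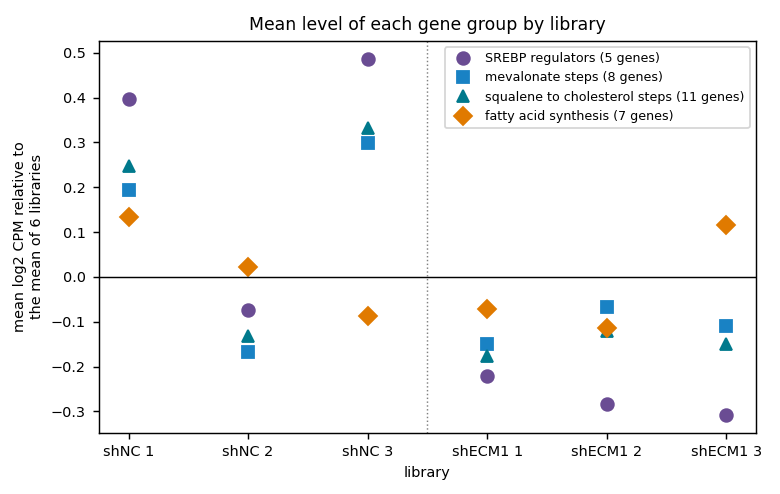
Mean log2 CPM of each gene group (symbols) relative to the mean of the 6 libraries (y axis), for each library (x axis), with no error bars because each point is a mean over the genes of a group. The regulators and both sterol groups are high in controls 1 and 3 and low in control 2 and in all shECM1 libraries, whereas the fatty acid group runs from -0.11 to 0.13 with no split by group.

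Other genes of the pathway were read from lists set beside the 32, counting a gene as lower or higher at an unadjusted p under 0.05 in edgeR (14.2% and 8.31% of all genes). Of 14 genes of sterol uptake and lysosomal export, 6 were lower and 1 was higher, with a median of -0.27. NPC1, which exports sterol from lysosomes, and GRAMD1A, a sterol carrier from the plasma membrane, were among the lower ones, with log2 fold changes of -0.54 and -0.32. NPC1 was at 111, 77.6 and 135 CPM in shNC replicates 1, 2 and 3 and at 83.0, 76.5 and 63.0 CPM in the shECM1 replicates. Neither was called by DESeq2 (adjusted p = 0.0571 for NPC1 and 0.0853 for GRAMD1A).

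Of 23 tested genes of fatty acid activation, elongation and lipogenic control, 6 were lower and 0 higher. The list had 15 negative genes and a median of -0.23, so fatty acid genes outside the 7 did not show the median near 0 of the fatty acid arm. ACSS2, which makes acetyl-CoA from acetate and is an SREBP target, was at 49.0, 26.1 and 63.3 CPM in shNC replicates 1, 2 and 3 and at 21.1, 20.1 and 19.2 CPM in the shECM1 replicates. The groups did not overlap, and the log2 fold change was -1.20 ± 0.25 (SE, n = 3 each), with edgeR adjusted p = 0.0973 and DESeq2 adjusted p = 0.000535. The lipase-like gene PNPLA3 (-0.87), the phosphatidate phosphatase gene LPIN1 (-0.83) and the acyl-CoA synthetase gene ACSL5 (-0.69) were also without overlap and were called by DESeq2 (adjusted p = 0.0256, 0.0361 and 0.0158). Of 12 genes that process SREBPs or sense sterol in the endoplasmic reticulum, 0 were lower and 1 was higher, RNF139, a sterol-responsive ubiquitin ligase (0.31), and the median was 0.12. Of 9 tested genes of LXR signalling, efflux and esterification, 1 was lower, SOAT2, which esterifies cholesterol (-0.58), and the median was -0.20. Fatty acid oxidation, the opposing pathway, had 3 of 19 lower (ACADVL -0.35, ETFB -0.36 and PPARA -0.59) and 1 higher (ACADM 0.26), with a median of -0.08. With all 6 libraries edgeR called none of the genes in these lists.

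Over all genes with a GC value, the differences went with transcript GC content. The quartile medians of the listed genes did not fall steadily with it. Summed markers of fibroblasts, endothelium and adipocytes lay lower in shECM1 without overlap, while the immune and hepatocyte sums overlapped between the groups. Across 12502 genes the log2 fold change went down with GC content (Pearson r = -0.38 and Spearman rho = -0.38 across genes, which share the same 6 libraries and are not independent replicates). In the lowest GC quartile, all genes had a median of 0.13 while the 10 listed genes there had a median of -0.39. In the highest GC quartile the medians were -0.19 for all genes and -0.18 for the 10 listed genes. With a per-library GC correction the sterol median was -0.24, the fatty acid median -0.06, and 14 of the 32 were lower and 1 was higher at an unadjusted p under 0.05, with 0 called by edgeR. In that fit 2809 of all 12576 genes had an unadjusted p under 0.05 in either direction. Immune markers summed to 76.9 to 194.8 CPM in shNC and 49.9 to 79.1 in shECM1, with PTPRC, CD3E, MS4A1 and FCGR3A at 0 in every library and 3 of the 10 above the count filter. CD68, a lysosomal protein gene, carried most of this sum, with means of 121 CPM in shNC and 58.6 CPM in shECM1, ahead of LYZ. Hepatocyte markers summed to 43.2 to 104.2 CPM in shNC and 35.9 to 48.0 in shECM1, with TTR and FGB at 0, and SERPINA1 carried nearly all of it (means of 79.2 and 40.7 CPM). Fibroblast markers summed to 23.6 to 35.5 CPM against 16.7 to 20.9, with PDGFRA, COL3A1 and FAP at 0. COL1A1 carried most of that difference (means of 17.6 CPM in shNC and 8.38 CPM in shECM1), and LUM was at 10.8 and 9.23 CPM. Endothelial markers summed to 9.73 to 12.2 CPM against 8.04 to 9.22, with KDR at 0, and adipocyte markers to 1.44 to 2.72 CPM against 0.585 to 1.13, with ADIPOQ, FABP4 and LPL at 0. CIDEC carried most of the adipocyte sum (means of 1.80 CPM in shNC and 0.707 CPM in shECM1). The part of these markers in the results was not tested.

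**Figure D5:**
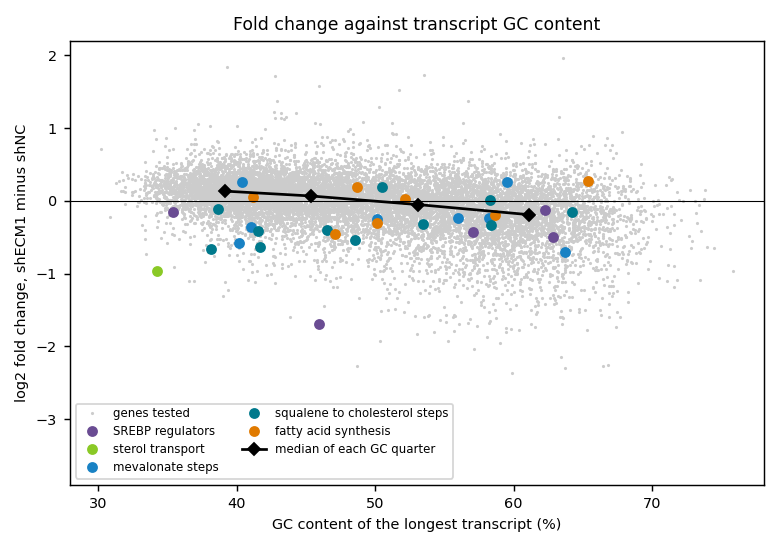
Log2 fold change (shECM1 minus shNC, y axis) against the GC content of the longest transcript (x axis) for 12502 genes in grey and the 32 listed genes in colours, with black diamonds for the median of each GC quartile. The medians go from 0.13 to -0.19 with rising GC, while INSIG1, STARD4 and MSMO1 lie far below the medians at low or middle GC.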

How the data were processed

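The deposited table of the authors held raw whole-number counts per gene for 3 shNC and 3 shECM1 libraries, none per cell. The submitters' processing notes name fastp, STAR, featureCounts, DESeq2, Seurat, GRCh38 and hg38; their versions, roles, settings and strand use were not given in the sources used here. Total RNA was extracted and droplet libraries were also made, per the labels' protocols, so the kind of library behind a column is not stated; levels per kilobase assume reads along the whole transcript. Separate cultures are not stated for the replicates: every p-value covers the spread of these libraries, possibly a technical one.

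Symbols were found for 20462 of 20476 identifiers. R 4.3.3 and edgeR 4.0.16 gave the main test (filterByExpr, TMM, glmQLFit and glmQLFTest, no covariate, adjusted p threshold 0.05 over 12576 genes). DESeq2 1.42.0 and limma-voom (limma 3.58.1) were alternatives. Each SE was the log2 fold change over the root of its F statistic. The edgeR procedure was also run on simulated counts, and the outcome of that run is not reported here. No 2 libraries agreed within sampling noise (chi-square per gene at least 3.30). The genes and lists were chosen with earlier results of these data known, and no list was tested as a set. Values by library are given for regulators, fatty acid genes, genes without overlap and the 2 most abundant genes of each group, and also for MVD and MSMO1, chosen after their values were seen. Of other lists, up to 4 genes with an unadjusted p under 0.05 are named. Some genes of those lists are not reported here. Exon overlaps and coordinates come from GENCODE 29. The replicate numbers were not taken to pair the libraries (closing section). Alternatives were other scalings and filters, a replicate block and leaving out each library; the GC correction and fits combining settings were chosen after seeing the data.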

Additional observations from a re-analysis of the deposited data

How the results depend on the processing

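Under all 17 alternatives the sterol arm median was negative, from -0.47 to -0.20, as were the regulator median, from -0.56 to -0.30, and the gap between the sterol and fatty acid medians, from -0.50 to -0.12. With 1 library left out, the fatty acid median was -0.108 to 0.0629, ECM1 -1.88 to -1.24, the genes called by edgeR 0 to 3037 and the listed genes called 0 to 17, with calls arising only without shNC replicate 2. No count filter gave 505 of 16386 genes and 4 listed genes (INSIG1, MVD, SREBF1 and STARD4). DESeq2 gave 713 of the 11683 genes with an adjusted p and 8 listed genes. With shNC replicate 2 left out, DESeq2 gave 2680 of the 20476 genes in the table and 17 listed genes. That total includes genes without an adjusted p, so its share cannot be compared with the 713 of 11683. The GC correction with that library left out gave 3262 of 12730 genes and 21 listed genes. ECM1 was called in these 4 fits, at -1.58, -1.57, -1.89 and -1.76, and in edgeR without shNC replicate 2. At an unadjusted p under 0.05, edgeR had 2827 genes and limma-voom, which called 0, had 2776. Signs changed for these genes, and the cause was not tested. With 1 library left out, LSS ran from -0.156 to 0.101, FADS2 from -0.407 to 0.225, ELOVL6 from -0.108 to 0.193, ACLY from -0.0620 to 0.0818 and INSIG2 from -0.274 to 0.0156. LSS was also at -0.0018 with the replicate block and -0.0240 in DESeq2 with shNC replicate 2 left out. With the GC correction ELOVL6 was at -0.0559, TM7SF2 at 0.0408 and SCAP at 0.0537, the last 2 at 0.0815 and 0.10 with shNC replicate 2 also left out. With the replicate block edgeR called 0 genes and the sterol median was -0.30. Deviations of same-numbered libraries correlated at -0.07, -0.05 and -0.18, so the numbers were not taken to pair the libraries. No shNC library correlated best with its own number. Low counts limit FADS2, ELOVL6 and CYP51A1, and 3 libraries per group limit every comparison.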
